A study of Mus musculus with 10 samples.

Results

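AP-1 is a family of transcription factors that bind DNA as dimers of a Fos protein with a Jun protein, of 2 Jun proteins, or of either with a related factor such as Atf3. The 7 genes described here are the Fos family members Fos, Fosb and Fosl2, the Jun family members Jun, Junb and Jund, and Atf3. They were taken by symbol from the count data, which list 24421 genes, and all 7 were found and passed the filter on low counts, with which 11846 genes were tested. Many AP-1 genes are immediate-early genes: their transcription starts within minutes of a growth factor, stress or kinase signal without new protein synthesis, and their mRNA and protein are short-lived. In the erythroid lineage AP-1 proteins are known as part of the response to erythropoietin and to stress.

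The RNA came from R2 cells, the CD71+Ter119+ erythroid cells of the bone marrow, sorted from transplanted mice (1 mouse per library). Lethally irradiated BoyJ recipients had been given 1000000 bone marrow cells of donors with a tamoxifen-inducible Cre (CreERT2) driven from the Rosa26 locus, and all received 1 mg of tamoxifen per day over 2 rounds of 5 days. The cells were collected 8 weeks post-transplant. The 4 genotypes were Ddx41+/+;Trp53+/+ (3 mice, numbered 10, 11 and 12), Ddx41+/-;Trp53+/+ (2 mice, 32 and 34), Ddx41+/+;Trp53+/- (3 mice, 22, 23 and 24) and Ddx41+/-;Trp53+/- (2 mice, 46 and 47). Ddx41 encodes a DEAD-box RNA helicase, and its floxed allele is deleted wherever this broadly expressed Cre is active, so not in erythroid cells alone. Trp53 encodes p53, and its knockout allele is present in all donor cells. The ages of the mice are not given in the sources used here, and cells of the recipients that survived the irradiation can be part of a sort.

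The libraries held 7866648 to 20283930 counts, with the smallest from mouse 34. Levels below are CPM, counts scaled to the size of each library after TMM normalisation. Ddx41 was at 21.9 to 26.6 CPM in the 6 Ddx41+/+ mice and at 12.5 to 16.5 CPM in the 4 Ddx41+/- mice, and Trp53 at 57.4 to 68.1 CPM against 40.3 to 46.2 CPM, and no Ddx41 or Trp53 value overlapped between the 2 genotypes of that gene. Erythroid membrane and heme genes were high in every mouse, with Slc4a1, the anion exchanger, at 25470 to 30512 CPM and Tfrc, which encodes CD71, at 2692 to 3458 CPM. The globin genes Hba-a1, Hba-a2, Hbb-bs and Hbb-bt held at most 21 counts in any library and cannot be used as a check of the cell type. In a sorted population, fewer cells of a type and less RNA per cell cannot be told apart.

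The regulatory DNA in front of 4 of the genes is shown because the Fos, Jun and Atf3 promoters are known to be switched on through short sites bound by AP-1 and CREB-family proteins, and because Fosb had the largest log2 fold change of the 7 genes with Trp53+/+. Each line gives the 250 bases before the RefSeq start of the gene (GRCm38.p6), 5′ to 3′ on the strand of the gene, with matches to the motifs named below in capitals.
Fos (chr12:85473640-85473889, plus strand): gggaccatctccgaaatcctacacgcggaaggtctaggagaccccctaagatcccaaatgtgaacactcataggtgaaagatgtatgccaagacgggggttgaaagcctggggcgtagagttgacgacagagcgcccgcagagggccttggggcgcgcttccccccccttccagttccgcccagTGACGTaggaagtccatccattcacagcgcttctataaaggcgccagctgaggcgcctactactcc
Jun (chr4:95052223-95052472, minus strand): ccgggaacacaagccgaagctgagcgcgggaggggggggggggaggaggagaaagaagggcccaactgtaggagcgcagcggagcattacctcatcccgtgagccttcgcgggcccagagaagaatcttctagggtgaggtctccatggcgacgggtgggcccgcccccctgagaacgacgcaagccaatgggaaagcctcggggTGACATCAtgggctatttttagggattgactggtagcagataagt
Atf3 (chr1:191183334-191183583, minus strand): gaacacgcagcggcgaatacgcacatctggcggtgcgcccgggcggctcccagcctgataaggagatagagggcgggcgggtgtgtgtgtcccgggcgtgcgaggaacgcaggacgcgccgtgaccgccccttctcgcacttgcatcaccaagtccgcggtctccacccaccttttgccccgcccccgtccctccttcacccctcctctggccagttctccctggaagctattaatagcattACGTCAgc
Fosb (chr7:19310046-19310295, minus strand): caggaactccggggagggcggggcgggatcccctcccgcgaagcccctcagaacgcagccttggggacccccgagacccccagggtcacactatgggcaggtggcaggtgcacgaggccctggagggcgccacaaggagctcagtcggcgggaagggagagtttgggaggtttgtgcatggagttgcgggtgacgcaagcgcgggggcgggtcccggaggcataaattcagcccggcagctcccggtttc

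The motifs searched on both strands were the AP-1 site TGACTCA (TRE), the cAMP response element TGACGTCA (CRE), its core TGACGT, which is also found within every full CRE, the Jun-type variant TGACATCA, and the CArG box, the site of serum response factor. The Fos promoter held the CRE core 66 to 61 bases before the start, the Jun promoter held TGACATCA at 45 to 38 bases, and the Atf3 promoter held the CRE core on the opposite strand at 8 to 3 bases. No match was found in the windows of Fosb, Fosl2, Junb and Jund. Of 32851 promoter windows, 6.47% held the CRE core, 2.93% the Jun-type variant, 4.46% the TRE, 1.55% the full CRE and 1.47% the CArG box. The RefSeq starts of Atf3 and Fosl2 lie inside the longer GENCODE genes, with their whole windows, and the RefSeq start of Jund lies before its GENCODE start. A match is a run of letters and not a measured binding site. Only these 250 bases were searched, so a motif without a match here can still lie farther upstream or within the gene.

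All 7 genes were expressed in every mouse. Compared per length (CPM per kb of exon, over all annotated exons of the gene), Jund was the most abundant transcript, with a mean of 343 CPM per kb over the 10 mice (range 244 to 417 over the mice). Fos followed at 116 (60.5 to 169), Jun at 79.3 (51.1 to 102), Junb at 71.1 (55.4 to 91.5), Atf3 at 22.9 (14.5 to 34.4), Fosb at 22.5 (12.3 to 31.5) and Fosl2 at 2.46 (at most 3.60). The ranges over mice overlapped between Fos, Jun and Junb and between Atf3 and Fosb, while Jund lay above and Fosl2 below all others in every mouse. With the length of the longest transcript instead, Junb (90.5 CPM per kb) came before Jun (79.3) and Fosb (37.2) before Atf3 (24.8). Over all annotated exons, Jund alone made up 42.5% to 59.9% of the summed level of the 7 genes in a mouse, and Fosb 2.49% to 4.54%. These shares depend on the lengths used.

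**Figure D1:**
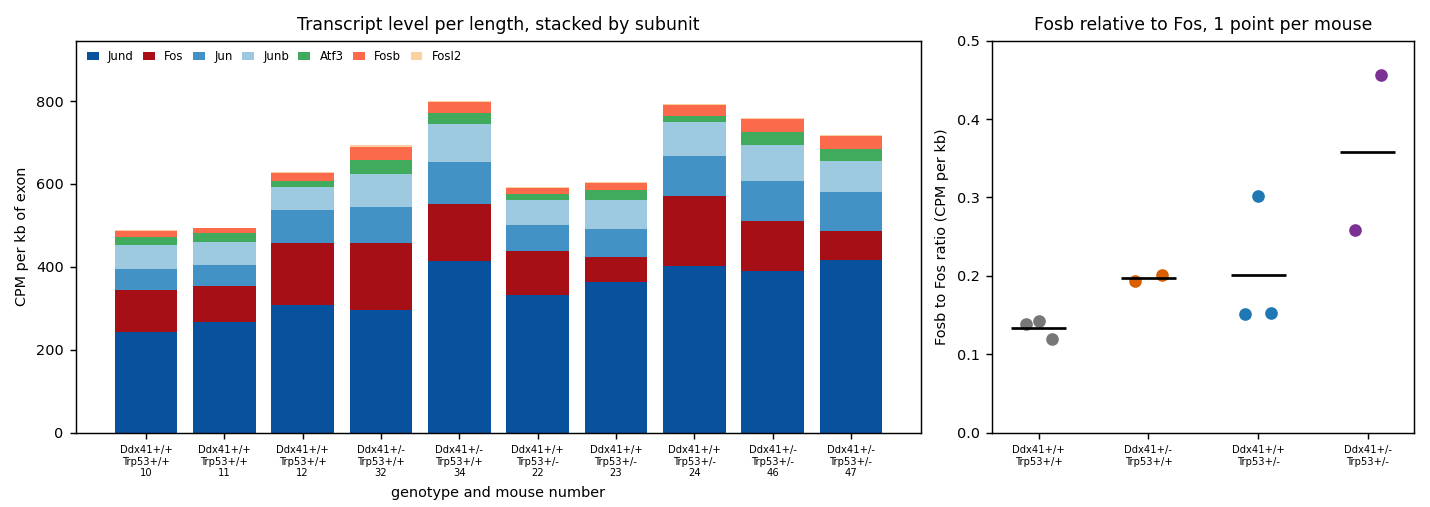
Left, level of the 7 subunit genes in CPM per kb of exon, stacked in a bar for each mouse; the sums run from 489 to 801. Right, the ratio of Fosb to Fos on the same scale, with 1 point per mouse and a line at the genotype mean; the 3 Ddx41+/+;Trp53+/+ mice lay lowest, at 0.120 to 0.142.

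The Fos family encodes proteins that cannot pair with themselves and need a Jun partner. Fosb encodes FosB and, by splicing, the long-lived form ΔFosB. Its level was 85.7, 76.9 and 112 CPM in Ddx41+/+;Trp53+/+ mice and 196 and 172 CPM in Ddx41+/-;Trp53+/+ mice. It was 98.9, 114 and 161 CPM in Ddx41+/+;Trp53+/- mice and 194.6 and 195.0 CPM in Ddx41+/-;Trp53+/- mice. The 4 Ddx41+/- mice were all above the 6 Ddx41+/+ mice.

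Fos, the gene of c-Fos and the best known immediate-early gene, was at 234, 204 and 351 CPM in Ddx41+/+;Trp53+/+ mice and at 381 and 322 CPM in Ddx41+/-;Trp53+/+ mice. In Ddx41+/+;Trp53+/- mice it was at 247, 142 and 398 CPM, and in Ddx41+/-;Trp53+/- mice at 284 and 161 CPM. The genotypes with different Ddx41 alleles overlapped on both Trp53 backgrounds. Fos also varied most among mice of a genotype: the standard deviation of its log2 CPM around the genotype means was 0.55, above that of 86.9% of the tested genes, while that of the other 6 members was 0.15 (Junb) to 0.29. In each of the 4 genotypes the mouse with the highest Fos was also the one with the highest summed level of 12 neutrophil markers, at 8543 CPM in mouse 12, 8417 in mouse 32, 8375 in mouse 24 and 8544 in mouse 46, where the other 6 mice had 5002 to 6255 CPM. Fosb was likewise highest of its genotype in mice 12, 32 and 24. In mouse 46 (194.6 CPM) Fosb was just below mouse 47 (195.0 CPM). No neutrophil marker was at 0 in any mouse, and their part in the levels of Fos and Fosb was not tested. These patterns were noticed after the values had been seen.

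Fosl2 encodes Fra-2, a Fos family protein without a strong activation domain. Its level was 22.99, 16.8 and 19.6 CPM in Ddx41+/+;Trp53+/+ mice, and both Ddx41+/-;Trp53+/+ mice were higher, at 28.6 and 28.1 CPM. With Trp53+/- it was 16.5, 25.5 and 22.9 CPM in Ddx41+/+ mice and 34.9 and 22.7 CPM in Ddx41+/- mice, which overlapped.

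The Jun family proteins pair with each other as well as with Fos proteins. Jun, the gene of c-Jun and the main target of the JNK kinases, was at 166, 163 and 255 CPM in Ddx41+/+;Trp53+/+ mice and at 283 and 324 CPM in Ddx41+/-;Trp53+/+ mice. With Trp53+/- it was at 202, 218 and 309 CPM in Ddx41+/+ mice and at 308 and 301 CPM in Ddx41+/- mice, where mouse 24 was as high as the Ddx41+/- mice. Junb, a weaker activator that can restrain c-Jun, was at 134, 129 and 127 CPM in Ddx41+/+;Trp53+/+ mice, the smallest spread of the 7 genes relative to their level among these 3 mice, and at 181 and 210 CPM in Ddx41+/-;Trp53+/+ mice. With Trp53+/- it was at 138, 161 and 186 CPM in Ddx41+/+ mice and at 195 and 175 CPM in Ddx41+/- mice, which overlapped.

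Jund, which is expressed at a steadier level than its relatives in most tissues, was at 407, 444 and 515 CPM in Ddx41+/+;Trp53+/+ mice and at 492 and 692 CPM in Ddx41+/-;Trp53+/+ mice. It was at 554, 605 and 670 CPM in Ddx41+/+;Trp53+/- mice and at 652 and 696 CPM in Ddx41+/-;Trp53+/- mice. All 5 Trp53+/- mice were above the 3 Ddx41+/+;Trp53+/+ mice, and mouse 32 lay below all Trp53+/- mice while mouse 34 was among the highest.

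Atf3, a stress-induced partner of Jun proteins that often acts as a repressor, was at 41.3, 44.2 and 31.6 CPM in Ddx41+/+;Trp53+/+ mice and at 74.0 and 55.2 CPM in Ddx41+/-;Trp53+/+ mice. With Trp53+/- it was at 31.2, 49.7 and 34.3 CPM in Ddx41+/+ mice and at 69.0 and 61.6 CPM in Ddx41+/- mice. As with Fosb, every Ddx41+/- mouse was above every Ddx41+/+ mouse, whereas the genotypes of Trp53 had nearly the same means (39.1 ± 6.61 and 38.4 ± 9.89 CPM in Ddx41+/+ mice, SD, n = 3 each).

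**Figure D2:**
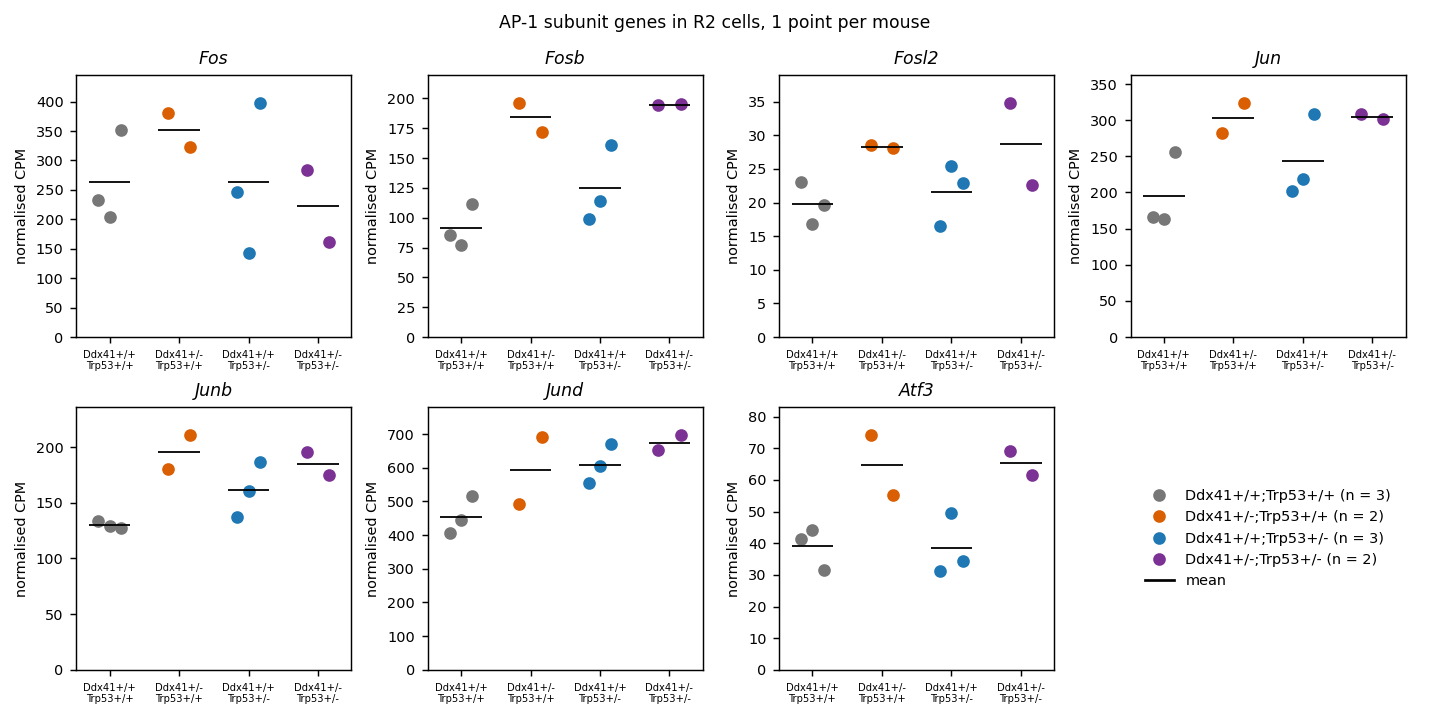
Level of each subunit gene in normalised CPM (linear axis from 0), with 1 point per mouse and a line at the mean of each genotype. Fosb and Atf3 lay higher in all 4 Ddx41+/- mice than in the 6 Ddx41+/+ mice, and Fos overlapped between the Ddx41 genotypes.

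The first comparison was of Ddx41+/- with Ddx41+/+ R2 cells with Trp53+/+. Calls needed both a change of more than 1.5-fold and an adjusted p below 0.05 in edgeR's quasi-likelihood test, with Benjamini-Hochberg adjustment over all 11846 genes. Fosb rose 2.02-fold, a log2 fold change of 1.01 (SE 0.17, adjusted p = 0.00674), and was the only member called, when 0.54% of all tested genes were called and 0.38% were called higher. Junb passed the p threshold but lay just under the fold limit, at 1.499-fold (log2 fold change 0.58, SE 0.11, adjusted p = 0.0153). The log2 fold changes of the others were 0.73 for Atf3 (SE 0.18, adjusted p = 0.0829), 0.64 for Jun (SE 0.18, adjusted p = 0.140), 0.52 for Fosl2 (SE 0.20, adjusted p = 0.377), 0.42 for Fos (SE 0.31, adjusted p = 0.724) and 0.38 for Jund (SE 0.12, adjusted p = 0.259). All 7 lay above 0, with a median of 0.58, where 50.3% of tested genes lay above 0 and their median was 0.001. An unadjusted p under 0.05 was found for 6 of the 7, against 9.64% of tested genes. In 5 of the 7 both Ddx41+/- mice were above all 3 Ddx41+/+ mice, which held for 12.9% of tested genes.

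The call of Fosb rested on both Ddx41+/- mice: without mouse 32 its log2 fold change was 0.91 (adjusted p = 0.124) and without mouse 34 it was 1.11 (adjusted p = 0.0676). Without mouse 12, the Ddx41+/+;Trp53+/+ mouse with the highest Fos, Fosb and Jun, Jun was called as well (log2 fold change 0.88, adjusted p = 0.00753). Without mouse 10, Junb was called (0.61, adjusted p = 0.0395), and without mouse 23, which is in neither group, Atf3 was called (0.73, adjusted p = 0.0270).

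In the same comparison with Trp53+/-, none of the 7 members was called, when 0.0422% of tested genes were. Atf3 had a log2 fold change of 0.76 (SE 0.18, unadjusted p = 0.000597, adjusted p = 0.786) and was ranked 9 of all tested genes by p, and Fosb had 0.64 (SE 0.16, unadjusted p = 0.00129, adjusted p = 0.9997), ranked 13. These were the 2 members at an unadjusted p under 0.05 in edgeR's test, against 3.75% of all genes, and the 2 in which the groups did not overlap, against 9.23% of genes higher in Ddx41+/- mice without overlap. DESeq2 called 0 members here. The other log2 fold changes ran from 0.14 for Jund to 0.40 for Fosl2, and that of Fos was -0.24 (SE 0.31), so that 6 of 7 lay above 0, against 48.8% of genes. Without mouse 23 Atf3 was called (0.99, adjusted p = 0.0282), and without mouse 24 Fosb was called (0.87, adjusted p = 0.0264).

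Whether the Ddx41 difference itself changed with the Trp53 genotype was tested as an interaction, and no member was called, when 0.0675% of tested genes were. The interaction is given as the log2 fold change with Trp53+/- minus that with Trp53+/+. It was -0.39 for Junb (SE 0.15, unadjusted p = 0.0212, adjusted p = 0.852), the 1 member at an unadjusted p under 0.05 with edgeR, against 5.01% of genes. It was -0.38 for Fosb (SE 0.24), -0.32 for Jun (SE 0.25), -0.67 for Fos (SE 0.44), -0.23 for Jund (SE 0.17), -0.12 for Fosl2 (SE 0.28) and 0.03 for Atf3 (SE 0.26). DESeq2 called 0 members as well.

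Over both Trp53 genotypes in an additive model, Ddx41+/- R2 cells had higher Fosb and Atf3. Fosb was 1.77-fold higher (log2 fold change 0.83, SE 0.12, adjusted p = 0.0164), ranked 3 of all tested genes by p, and Atf3 1.68-fold higher (0.75, SE 0.12, adjusted p = 0.0251), ranked 7. These 2 of 7 members were called, when 0.11% of tested genes were called and 0.076% were called higher. In both genes all 4 Ddx41+/- mice were above all 6 Ddx41+/+ mice, which held for 0.794% of tested genes. The additive model and the comparison with Trp53+/+ share mice, so one is no independent support of the other. The log2 fold changes were 0.48 for Jun (SE 0.13, adjusted p = 0.215), 0.46 for Fosl2 (SE 0.14, adjusted p = 0.307), 0.39 for Junb (SE 0.09, adjusted p = 0.105), 0.26 for Jund (SE 0.09, adjusted p = 0.409) and 0.10 for Fos (SE 0.23, adjusted p = 0.932). The median was 0.46, against 0.0004 over all genes. All 7 lay above 0, against 50.1% of genes, and 6 of the 7 had an unadjusted p under 0.05, against 8.98% of genes.

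These calls lay near the threshold. Without mouse 10 Fosb (log2 fold change 0.79) and Atf3 (0.77) both had an adjusted p of 0.0501. Without mouse 32 they had 0.74 (adjusted p = 0.107) and 0.67 (adjusted p = 0.211), and without mouse 34 they had 0.83 (adjusted p = 0.0588) and 0.83 (adjusted p = 0.0523). Without mouse 46 Atf3 had 0.71 (adjusted p = 0.0837) and Fosb was still called. Without mouse 24 Jun was called too (0.59, adjusted p = 0.0348).

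Trp53+/- was compared with Trp53+/+ within each Ddx41 genotype, with the Ddx41+/+;Trp53+/+ and Ddx41+/-;Trp53+/+ mice now as controls, so these comparisons share mice with those above. With Ddx41+/+, 0 of 7 members were called, when 0.912% of tested genes were, and 3 members had an unadjusted p under 0.05 with edgeR (9.44% of genes). Jund had the smallest p, with a log2 fold change of 0.42 (SE 0.11, adjusted p = 0.0992), ahead of Junb at 0.31 (SE 0.10, adjusted p = 0.190) and Fosb at 0.46 (SE 0.15, adjusted p = 0.246). In Jund and Junb the 3 Trp53+/- mice were above the 3 Trp53+/+ mice, which held for 7.58% of genes. The log2 fold changes of Jun, Fosl2, Fos and Atf3 were 0.32, 0.14, 0.002 and -0.02.

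With Ddx41+/-, 0 of 7 members were called, when 0.169% of genes were, and 0 had an unadjusted p under 0.05 with edgeR (5.41% of genes). Both Ddx41+/-;Trp53+/- mice were below both Ddx41+/-;Trp53+/+ mice in Fos (log2 fold change -0.67, SE 0.34, adjusted p = 0.927), and 18.5% of genes were lower without overlap. The other 6 members lay between -0.08 and 0.19. Over both Ddx41 genotypes 0 members were called, when 0.287% of genes were, and Jund had the largest difference at 0.33 (SE 0.09, adjusted p = 0.124), with 2 members at an unadjusted p under 0.05 (11.2% of genes). DESeq2 called 0 members in each of these Trp53 comparisons.

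**Figure D3:**
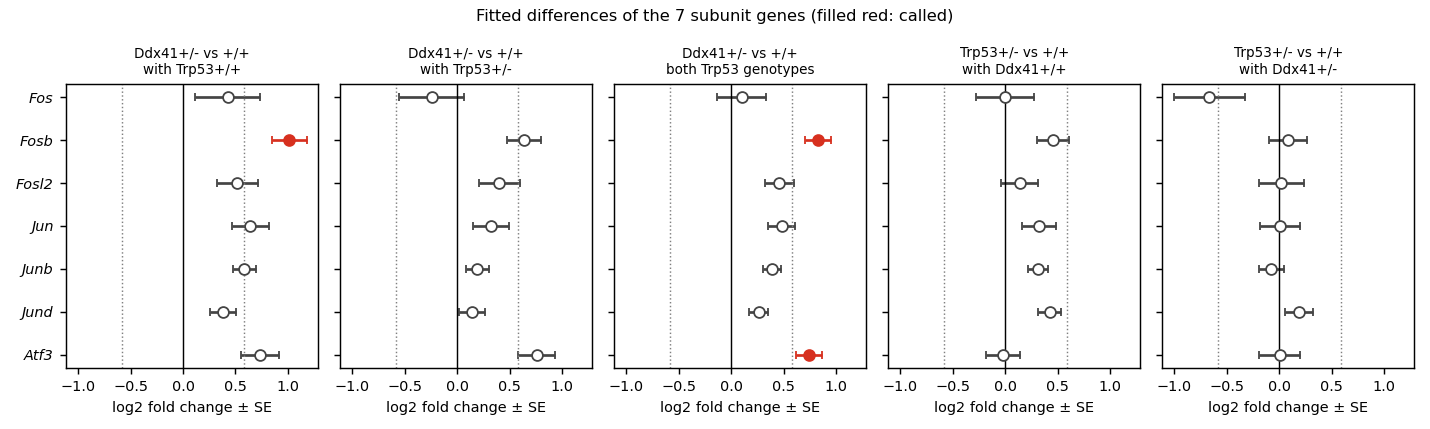
Fitted log2 fold change of each subunit gene, with bars of 1 SE, in 5 comparisons of 2 or 3 mice per genotype; filled red points were called and dotted lines mark a fold change of 1.5. Fosb was called with Trp53+/+ (1.01) and over both Trp53 genotypes (0.83), Atf3 over both (0.75), and no member in the Trp53 comparisons.

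The ratio of Fosb to Fos, 2 Fos family genes that lie on different chromosomes, was also computed per mouse from the levels per kb of all annotated exons, as a description. Its size depends on the lengths used, by the same factor in every mouse. By the longest transcript, Fosb had a mean of 37.2 CPM per kb and Fos 129, against 22.5 and 116 over all annotated exons. The ratio was 0.138, 0.142 and 0.120 in Ddx41+/+;Trp53+/+ mice, 0.194 and 0.200 in Ddx41+/-;Trp53+/+ mice, 0.151, 0.302 and 0.153 in Ddx41+/+;Trp53+/- mice and 0.259 and 0.457 in Ddx41+/-;Trp53+/- mice. The lowest 3 values were those of the mice with neither allele changed, and mouse 23, the mouse with the lowest Fos, stood apart in its group. The summed level of the 7 genes was 537 ± 78.9 CPM per kb (SD, n = 3) in Ddx41+/+;Trp53+/+ mice, 664 ± 112 (n = 3) in Ddx41+/+;Trp53+/- mice, 747 ± 76.8 (n = 2) in Ddx41+/-;Trp53+/+ mice and 739 ± 29.3 (n = 2) in Ddx41+/-;Trp53+/- mice. Mouse 24, a Ddx41+/+;Trp53+/- mouse, was as high as the Ddx41+/- mice.

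Across the 10 mice, the members' log2 CPM were compared in 21 pairs, with Pearson's r and Spearman's rho, a permutation test of 100000 resamples (two-sided) and adjustment over the 21 pairs. Fosb and Jun were the closest pair (r = 0.94, permutation p = 0.00022, adjusted p = 0.00462; rho = 0.76, adjusted p = 0.0633), followed by Fosb and Junb (r = 0.88, p = 0.00268, adjusted p = 0.0281; rho = 0.73, adjusted p = 0.0716) and Jun and Junb (r = 0.84, p = 0.00421, adjusted p = 0.0284; rho = 0.85, adjusted p = 0.0588). By the adjusted permutation p, 8 of the 21 pairs passed with Pearson's r and 0 with Spearman's rho. Fos was least like the others, with r from -0.12 (Atf3) to 0.44 (Jun).

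After the 2 mice farthest from the median of the first gene were left out, no pair passed the permutation test (smallest adjusted p = 0.0976), with r = 0.87 for Fosb and Jun (n = 8), 0.82 for Fosb and Junb, 0.78 for Jun and Junb and 0.84 for Fos and Jun. With the genotype means removed, and permutation only within genotypes (144 arrangements, smallest possible p 0.00694), no pair passed either (smallest adjusted p = 0.557). A lone pair at that smallest possible p would not have passed after adjustment over 21 pairs, so this test could hardly pass any pair. Fosb and Jun then had r = 0.88 (exact permutation p = 0.0694), and Atf3 with Jun, Jund and Fos had r = -0.53, -0.52 and -0.54. Fos with Fosb had r = 0.68 within genotypes, against 0.32 over all mice. The points share libraries and their scaling.

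**Figure D4:**
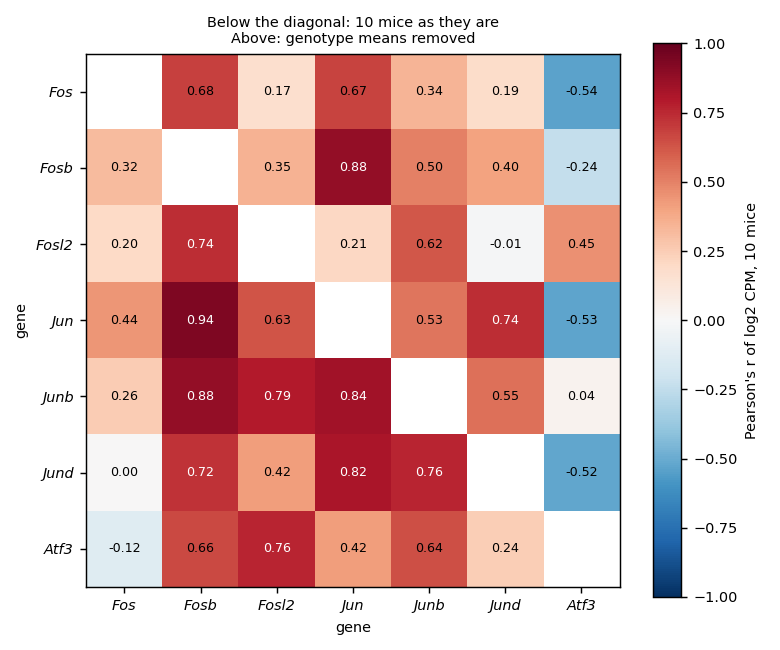
Pearson's r of log2 CPM between the 7 subunit genes over 10 mice, below the diagonal as measured and above it with the genotype means removed (colour scale from -1 to 1). Fosb and Jun stayed close (0.94 and 0.88), whereas Atf3 turned from positive to negative against Jun (0.42 and -0.53). By the adjusted permutation p, no pair passed with the genotype means removed, and Jun with Atf3 did not pass as measured either.

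Of the genes that are no members, those whose log2 CPM ran most like the 7 members' over the 10 mice were Btbd3, Osgin1, Renbp, Sh3bp5, Ddit4, Plekho1, Rasgef1b, Klf6, Ctbs and Cited2, with a mean Pearson's r over the 7 members of 0.75 for Btbd3 to 0.72 for Cited2. The median over 11839 genes was 0.004. Each of the 10 was closer to Fosb (0.86 to 0.96) than to Fos (0.12 to 0.50). These genes were picked as the highest of many, so the values are a description.

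The genes around AP-1 were followed in lists written with earlier results of these data known. Of the 23 tested other bZIP partners, 13 lay above 0 in Ddx41+/- mice with Trp53+/+, with a median log2 fold change of 0.11, where the median over all tested genes was 0.001. The gene called among them was Maff, a small Maf protein that pairs with Nfe2 and Nrf2 and is itself stress-induced. It was at 1.95, 1.17 and 2.08 CPM in Ddx41+/+;Trp53+/+ mice and at 5.60 and 3.94 CPM in Ddx41+/-;Trp53+/+ mice (log2 fold change 1.496, SE 0.33, adjusted p = 0.0493), from counts of 24 to 92. Maff was also called over both Trp53 genotypes (1.23, SE 0.22, adjusted p = 0.0402). The first of these calls held in 1 of 10 fits that left out a mouse (without mouse 12), with a log2 fold change of at least 1.19 over all alternatives, and the second also in 1 of 10 (without mouse 23).

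The kinases and factors upstream of AP-1 (30 tested, among them the MAP kinases) had 0 calls with Trp53+/+ in edgeR's test and 1 gene at an unadjusted p under 0.05, with a median of 0.03. The regulators of AP-1 protein stability and activity (14 tested) likewise had 0 calls and 1 gene at that p, with a median of 0.06, and DESeq2 called 0 genes of either list. The smallest p of the former was that of Rps6ka5, the kinase MSK1 (-0.45, SE 0.17, adjusted p = 0.382), followed by the MAP kinase genes Mapk13 (0.52) and Mapk3 (-0.16). That of the latter was Nfatc3, a partner of AP-1 on composite sites (-0.19, SE 0.08, adjusted p = 0.440), followed by the ubiquitin ligase gene Nedd4 (-0.16) and Nfatc1 (0.28). Among the 20 tested feedback inhibitors of MAPK signalling and of AP-1 mRNA, 18 lay above 0 with Trp53+/+, with a median of 0.40. Besides these, the list holds the NF-κB inhibitor genes Tnfaip3 and Nfkbia, and DESeq2 called Dusp6 and Tnfaip3. Tnfaip3, the ubiquitin-editing inhibitor A20 of NF-κB signalling, was the gene called in edgeR's test. It was at 55.2, 51.6 and 45.4 CPM in Ddx41+/+;Trp53+/+ mice and at 90.3 and 92.2 CPM in Ddx41+/-;Trp53+/+ mice (0.84, SE 0.15, adjusted p = 0.0149), and it was called over both Trp53 genotypes as well (0.69, SE 0.11, adjusted p = 0.0203).

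Of the 31 tested other immediate-early genes, 29 lay above 0 in Ddx41+/- mice with Trp53+/+, with a median of 0.66, and 22 had an unadjusted p under 0.05. Csrnp1, a nuclear protein induced by Axin, rose from 13.5 to 14.9 CPM to 26.5 and 27.2 CPM (0.94, SE 0.14, adjusted p = 0.00338), Klf6, a zinc finger factor, rose by 0.73 on the log2 scale (SE 0.16, adjusted p = 0.0493), and Cdkn1a, the p53 target p21, rose by 1.20 (SE 0.22, adjusted p = 0.0153). DESeq2 called 7 of the list here. Without mouse 32 and without mouse 34, none of Csrnp1, Klf6, Cdkn1a, Tnfaip3 and Maff was called, and Klf6 was called in 3 of 10 fits that left out a mouse. With Trp53+/- the same list had 25 of 31 above 0, a median of 0.15 and 0 calls in edgeR's and DESeq2's tests, with 3 genes at an unadjusted p under 0.05. Klf4 had the smallest p there (0.73, SE 0.18, unadjusted p = 0.00115, adjusted p = 0.9997), followed by Klf6 (0.44) and Nr4a1 (0.51), and Klf4 was called over both Trp53 genotypes (0.69, SE 0.13, adjusted p = 0.0434), a call that held in 2 of 10 fits that left out a mouse.

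Textbook AP-1 target genes (23 tested) had 0 calls with Trp53+/+ in edgeR's test, 5 genes at an unadjusted p under 0.05 and a median of 0.14, and DESeq2 called Cxcl2. The smallest p were those of the chemokine gene Cxcl2 (0.98, SE 0.23, adjusted p = 0.0628), Ccl2 (1.22, SE 0.34, adjusted p = 0.160) and the intermediate filament gene Vim (0.40, SE 0.11, adjusted p = 0.170). Of the 13 tested heat-shock genes, Hspa1a (2.23, SE 0.39, adjusted p = 0.0126) and Hspa1b (2.17, SE 0.35, adjusted p = 0.00543), near-identical copies of the inducible Hsp70 whose reads can be split between them, rose, and the median of the list was 0.21. Neither was called without mouse 32 or without mouse 34.

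In Trp53+/- mice with Ddx41+/+, 100 of the 108 called genes were higher (0.844% of tested genes, of 0.912% in all), and so were the 7 called in the lists around AP-1. They were Bach2, a bZIP repressor with a role in B cells (1.71, SE 0.31, adjusted p = 0.0126), the phosphatase gene Dusp10 (1.32, SE 0.28, adjusted p = 0.0316), Tnfaip3 (0.75, SE 0.14, adjusted p = 0.0136) and Nfkbia, the inhibitor of NF-κB (0.74, SE 0.14, adjusted p = 0.0154). Of the other immediate-early genes, 27 of 31 lay above 0 (50.1% of all genes) with a median of 0.35, and Egr3 (1.68, SE 0.37, adjusted p = 0.0395), Ets1 (0.82, SE 0.15, adjusted p = 0.0122) and Csrnp1 (0.66, SE 0.12, adjusted p = 0.0144) were called. Of the fits that left out 1 of the 10 mice, Bach2 and Ets1 were called in 9 (not without mouse 24), Tnfaip3 in 8 (not without mouse 23 or 24), Csrnp1 in 7 (not without mouse 10, 23 or 24), Nfkbia in 7 (not without mouse 10, 12 or 23), Dusp10 in 3 and Egr3 in 2. With only the 2 genotypes compared, Dusp10, Tnfaip3, Egr3 and Csrnp1 were not called. With Ddx41+/-, the median of the immediate-early list was 0.02, and Cdkn1a fell by 1.57 on the log2 scale (SE 0.25, adjusted p = 0.00973), a call lost without any 1 of the 4 mice compared.

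**Figure D5:**
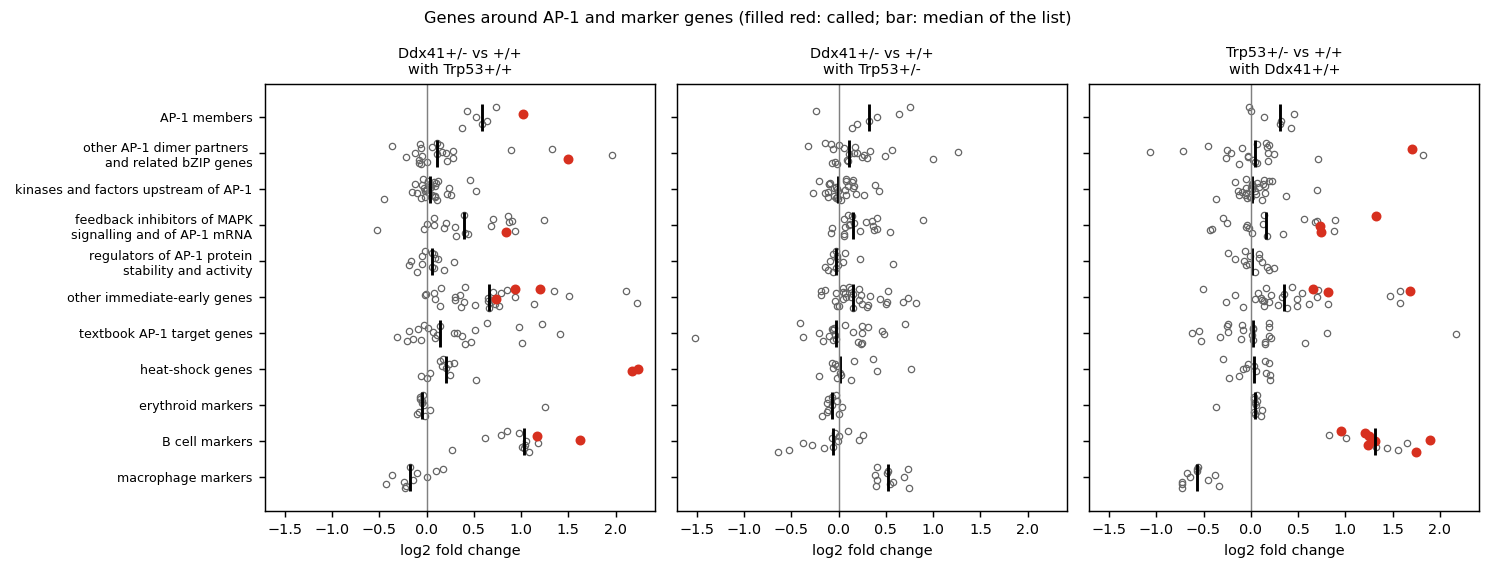
Log2 fold changes of single genes (points, filled red where called) in the 7 AP-1 genes, 7 lists around AP-1 and 3 lists of cell type markers, in 3 comparisons, with a bar at the median of each list. In Ddx41+/- mice with Trp53+/+ the medians were 0.58 for the AP-1 genes, 0.66 for other immediate-early genes and 1.03 for B cell markers.

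Markers of other cell types differed in the same comparisons. The summed level of 13 B cell markers was 116, 55.4 and 118 CPM in Ddx41+/+;Trp53+/+ mice, 145 and 238 CPM in Ddx41+/-;Trp53+/+ mice, 213, 203 and 259 CPM in Ddx41+/+;Trp53+/- mice and 232 and 202 CPM in Ddx41+/-;Trp53+/- mice, and no marker was at 0 in any mouse. With Trp53+/+, 13 of 13 B cell markers lay above 0 in Ddx41+/- mice (median 1.03), and Ebf1 (1.62, SE 0.32, adjusted p = 0.0250) and Cd79a (1.17, SE 0.24, adjusted p = 0.0312) were called, but neither without mouse 10, 11 or 34 nor with only the 2 genotypes compared. In Trp53+/- mice with Ddx41+/+, 13 of 13 lay above 0 (median 1.31) and 7 were called higher, when 0.844% of tested genes were. There 0 of 11 tested macrophage markers lay above 0 (median -0.57), with 0 calls and 9 genes at an unadjusted p under 0.05 in edgeR's test. The 9 tested T and NK cell markers summed to 8.12 to 11.3 CPM in Ddx41+/+;Trp53+/+ mice and to 12.7 to 20.1 CPM in the other 7 mice, with Gzma at 0 in mouse 11 and Klrd1 in mouse 10. Of these 9, all lay above 0 in Trp53+/- mice with Ddx41+/+ (median 0.89, 0 calls, 3 at an unadjusted p under 0.05 with edgeR) and 6 in Ddx41+/- mice with Trp53+/+ (median 0.64, 0 calls, 2 at that p). DESeq2 called no macrophage, T or NK cell marker in any comparison. In the comparison of Ddx41+/- with Ddx41+/+ with Trp53+/-, in which Atf3 and Fosb did not overlap, the B cell markers had 4 of 13 above 0 and a median of -0.06. In that comparison 11 of 11 tested macrophage markers lay above 0 (median 0.52), with 0 calls and 6 genes at an unadjusted p under 0.05. The summed level of the 12 listed macrophage markers was 370, 326 and 271 CPM in Ddx41+/+;Trp53+/- mice and 536 and 421 CPM in Ddx41+/-;Trp53+/- mice. It was 616, 329 and 554 CPM in Ddx41+/+;Trp53+/+ mice and 397 and 508 CPM in Ddx41+/-;Trp53+/+ mice, which overlapped. Of the defining macrophage markers, Marco was at 0 in 6 mice and no other was at 0 in any. The 12 tested neutrophil markers summed to 5002 to 8544 CPM over the mice. In Ddx41+/- mice 9 of 12 lay above 0 with Trp53+/+ (median 0.19) and 6 with Trp53+/- (median -0.002). Both comparisons had 0 calls and 0 neutrophil markers at an unadjusted p under 0.05 in edgeR's test. The part of the B cell, T and NK cell, macrophage and neutrophil markers in the differences of the members was not tested.

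The genes' positions set limits to some values (GENCODE M21, GRCm38). Fos lies on chromosome 12 (85473890 to 85477273, plus strand), Fosb on chromosome 7 (19302696 to 19310051, minus strand), Atf3 on chromosome 1 (191170296 to 191218039, minus strand) and Fosl2 on chromosome 5 (32135801 to 32157842, plus strand), and no stretch of 75 bases in the longest transcript of these 4 genes occurs in another gene's transcript. Jund (chromosome 8, 70698949 to 70700616, plus strand) shares 919 of its 1668 bases with the antisense gene Gm11175, and Jun (chromosome 4, 95049034 to 95052222, minus strand) shares 689 bases with the antisense gene Junos. Junb (chromosome 8, 84974484 to 84978718, minus strand) overlaps the end of Prdx2, an abundant erythroid peroxiredoxin gene, over 351 bases on the other strand. The Atf3 gene overlaps the small RNA gene Gm24748 on the other strand over 108 bases. The labels name a stranded library kit, whereas the study's methods name the TruSeq RNA kit, which does not mark strand. The strand setting of the counting is not given in the sources used here, so reads from these overlaps may not be assigned to 1 gene. Of the stretches of 75 bases in the longest transcript, 45.9% of Jund and 5.07% of Jun occur in the antisense gene's transcript. For Junb, as for Atf3, 0 occur in another gene's transcript, and shorter transcripts were not searched. Called genes were also counted within 10 Mb to either side of each member. Between Ddx41+/- and Ddx41+/+ mice with Trp53+/+, 6 of 120 other tested genes around Junb and 6 of 132 around Jund were called (5.0% and 4.55%). Of all genes with a position, 0.525% were called. The windows of Junb and Jund overlap, so a gene can be counted in both. Around Fosb it was 2 of 165, around Jun 1 of 39, around Fosl2 1 of 130, around Fos 0 of 97 and around Atf3 0 of 59. With Trp53+/-, the Ddx41 comparison had 0 of 120 around Junb and 1 of 132 around Jund (0.0438% of all). Between Trp53+/- and Trp53+/+ mice with Ddx41+/-, these were 5 of 120 and 2 of 132 (0.175% of all).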

How the data were processed

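The authors deposited raw counts per gene for 10 libraries, and per the labels the RNA was sequenced after poly(A) selection. Mice numbered 35 and 45 had been removed by the authors, for a reason not given in the sources used here. Their genotypes are not given either, and the kept mice with the nearest numbers (32, 34, 46 and 47) were all Ddx41+/-. The submitters' processing notes name FastQC 0.11.7, HISAT2 2.0.5, featureCounts 1.5.2 and mm10. All 10 mice entered 1 edgeR 4.0.16 quasi-likelihood fit (R 4.3.3, limma 3.58.1) with genotype as factor, TMM normalisation and filterByExpr, which left 11846 of 24421 genes. Differences over both genotypes of the other gene came from an additive model. Standard errors are the log2 fold change over the square root of F, and log2 CPM used a prior count of 2. Of each list, every called gene or, where none was called, the 3 with the smallest p were named, besides Ddx41 and Trp53 as a check and the 10 genes most like the members by mean r. The members and lists were chosen with earlier results of these data known. The fit was tested on simulated data. Replicates differed beyond counting noise (chi-square per degree of freedom 6.3 to 15.9). The libraries' depth, 7866648 to 20283930 counts, gave each member 165 to 12408 counts per library. Alternatives were DESeq2 1.42.0, its size factors, other count filters, a likelihood ratio test, no fold limit, only the 2 genotypes compared, and each mouse left out.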

Additional observations from a re-analysis of the deposited data

How the results depend on the processing

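No paired analysis was possible because the genotypes share no replicate numbers. Between Ddx41+/- and Ddx41+/+ mice with Trp53+/+, 64 of all tested genes were called, and 47 to 243 under the alternatives other than leaving out a mouse. The counts of members are to be read against that spread, given for the other comparisons at the end of this section. With Trp53+/+, 1 member was called between Ddx41+/- and Ddx41+/+ mice. It was 2 with DESeq2, 3 without a filter on low counts, 2 with at least 10 counts in every library, 3 with the likelihood ratio test, 2 with no limit on the fold change, and 0 to 2 when 1 mouse was left out (0 without mouse 32 or 34). With Trp53+/-, 0 members became 2 without the filter and 0 to 1 when a mouse was left out. Without the filter, Fos was the 1 member called in the difference of the Ddx41 effects and 1 member, again Fos, in Trp53+/- against Trp53+/+ with Ddx41+/-. The unfiltered fit gave adjusted p down to 3.592e-33 (Fosb over both Trp53 genotypes, log2 fold change 0.82), and the cause was not tested. Over both Trp53 genotypes, 2 members became 0 to 3 when a mouse was left out (0 without mouse 10, 32 or 34). No alternative called a member in Trp53+/- against Trp53+/+ with Ddx41+/+ or over both Ddx41 genotypes.

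Of 812 alternative values of the members' log2 fold changes, 743 kept direction and call, 17 gained a call, 9 lost one and 43 changed sign. In Trp53+/- against Trp53+/+ with Ddx41+/+, Fos was -0.0004 with DESeq2 and -0.001 with the likelihood ratio test. With Ddx41+/- and only the 2 genotypes compared, Jun was 0.0 and Atf3 -0.0048. When 1 mouse was left out, the Ddx41 comparison with Trp53+/- ran from -0.7061 to 0.1959 for Fos. The difference of the Ddx41 effects ran from -0.4595 to 0.1713 for Fosl2, from -0.4515 to 0.0378 for Jund and from -0.1535 to 0.2738 for Atf3. Trp53+/- against Trp53+/+ with Ddx41+/+ ran from -0.4359 to 0.3024 for Fos and from -0.2533 to 0.1001 for Atf3. With Ddx41+/- it ran from -0.0106 to 0.1926 for Fosb, -0.3256 to 0.3056 for Fosl2, -0.0806 to 0.1085 for Jun, -0.176 to 0.0364 for Junb, -0.03 to 0.4562 for Jund and -0.1792 to 0.2511 for Atf3. Over both Trp53 genotypes the Ddx41 comparison of Fos ran from -0.0262 to 0.3221. Over both Ddx41 genotypes the Trp53 comparison ran from -0.0066 to 0.189 for Fosl2 and from -0.1305 to 0.0597 for Atf3. The correlation of Fos with Atf3 was 0.1337 without the 2 farthest mice. With genotype means removed, r was -0.2406 for Fosb with Atf3, -0.009251 for Fosl2 with Jund, -0.528 for Jun with Atf3 and -0.5209 for Jund with Atf3.

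Over all tested genes, the 64 calls with Trp53+/+ ranged from 13 (without mouse 34) to 103 (without mouse 12), and up to 243 under the other alternatives. The 5 with Trp53+/- ranged from 1 to 10 and up to 39, the 8 for the difference of the effects up to 100, the 108 for Trp53 with Ddx41+/+ from 35 to 115 and up to 250, the 20 with Ddx41+/- from 13 to 24 and up to 67, the 13 for Ddx41 over both from 2 to 42 and up to 94, and the 34 for Trp53 over both from 20 to 79 and up to 181. With 2 mice in both Ddx41+/- groups, leaving out 1 of them leaves a lone mouse assumed to vary like the others.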
